A study of Mus musculus with 18 samples.

Results

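The 3 FoxO factors Foxo1, Foxo3 and Foxo4 and the 3 sestrins Sesn1, Sesn2 and Sesn3 were followed across young, old and rejuvenated old mesenchymal stem cells (MSCs). These 6 genes were picked by name from the 27179 genes of the table of normalized counts, and all 6 were among the 14353 genes whose mean over all libraries reached 10 normalized counts, which were tested. RNA came from 18 cultures of C57BL6 mouse bone marrow MSCs, 6 in each group, at passage 2 to 5. Young MSCs were from mice of 6 weeks and received no treatment, and old MSCs were from mice of 18 to 24 months. Rejuvenated old MSCs were old MSCs kept for 7 days in a well with young MSCs across a membrane with 0.4 µm pores, which passes soluble paracrine factors and holds back cells, whereas old MSCs were cultured on their own. A co-culture of old with other old MSCs was not used here, so the age of the neighbouring cells and their mere presence cannot be told apart. Whether the 6 cultures of a group came from separate mice is not stated, so the p-values measure the spread between these cultures, which may be technical.

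FoxO factors are forkhead transcription factors that switch on genes for cell cycle arrest, antioxidant defence, autophagy and sparing of glucose. Insulin and growth factors act through PI3K and the kinases Akt and Sgk to phosphorylate FoxO proteins, which then leave the nucleus, so that much of their control lies in the protein and not in the transcript. Sestrins are stress-induced proteins that bind the GATOR complexes and AMPK and hold back the growth kinase complex mTORC1. Sesn1 and Sesn2 are known targets of p53, Sesn2 is also induced by ATF4 and NRF2, and Sesn3 is a known FoxO target. In marrow stromal cells and osteoblasts, FoxO factors are known for protection against oxidative stress.

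The libraries held 22936251 to 29559194 reads on genes, and the deepest had 1.29 times the reads of the shallowest. The sum over 15 stromal markers was 417757 to 444864 normalized counts in young, 582960 to 612021 in old MSCs and 579456 to 622980 in rejuvenated ones. Single stromal markers went both ways. Of the 15, 5 were higher and 10 lower in young than in old MSCs, where 85.7% of all tested genes were called. Mean counts in young and old MSCs were 9227 and 197374 for Cxcl12 and 163 and 7340 for Eng. They were 295 and 15.9 for Nt5e and 25100 and 6135 for Ly6a. The difference of Cxcl12 alone was wider than that between the median stromal sums, 429199 in young and 597721 in old MSCs. The lower stromal sum in young MSCs thus rested on Cxcl12. Thy1, a defining stromal surface marker, was under 10 in all 6 old libraries. Macrophage markers differed sharply. Their sum over 20 genes was 1026 to 1128 in young, 18947 to 23376 in old MSCs and 18855 to 22751 in rejuvenated ones, and 12 of the 20, among them Ptprc and Adgre1, were under 10 in all young libraries. Of 19 such markers tested, 18 were lower and 1 was higher in young than in old MSCs, where 85.7% of all tested genes were called. Co-culture left 1 higher and 1 lower, where 41.6% of all tested genes were called. The endothelial markers Tie1 and Cldn5 had at most 3 reads in each library of the 3 groups, and the endothelial sums lay between 290.5 and 386 in all groups. These similar sums held opposite differences. Of 5 endothelial markers tested, 3 were higher and 2 lower in young than in old MSCs, where 85.7% of all tested genes were called. Means in young and old MSCs were 51.8 and 127 for Vwf, 134 and 186 for Egfl7 and 85.7 and 9.12 for Kdr. The sum over 15 markers of other blood cells was 6793 to 7208 in young, 132 to 155 in old MSCs and 237 to 615 in rejuvenated ones, and 14 of the 15, all but Cd34, were under 10 in all young libraries. Cd34, a surface protein of blood and stromal progenitors, had 6787 to 7191 in young and 19.4 to 28.0 in old MSCs, and it was 402 in rejuvenated old replicate 1 against 24.2 to 41.9 in the other 5 rejuvenated old libraries. Thy1 had 175 to 227 in young MSCs and 21.6 in the same rejuvenated old library, against 0 to 0.951 in the other 5. This library thus stood apart on Cd34 and Thy1, but not on all markers that are high in young MSCs. Nt5e had 254 to 326 in young, 12.9 to 23.1 in old and 12.3 to 21.4 in rejuvenated old MSCs. Kdr had 68.2 to 106, 4.30 to 19.7 and 1.89 to 9.66 in the same order. Pf4, a platelet chemokine, was 0 in young, 95.9 to 108 in old MSCs and 188 to 283 in rejuvenated ones (log2 fold change after co-culture 1.15, adjusted p = 3.35e-07). The study describes its mice as male, yet the 4 genes of the Y chromosome looked at, Ddx3y, Eif2s3y, Kdm5d and Uty, were between 0 and 2.06 normalized counts in the young libraries against 570.5 to 2203 in the old ones. Xist, the transcript that silences the second X chromosome of female cells, was low throughout, at 21.2 to 41.2 in young and 1.97 to 14.4 in old MSCs. These differences go with the whole young group and cannot be told apart from age in any value below. Nor can fewer cells of a type be told from less RNA per cell in such bulk samples.

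Promoter sequence was read for the members from RefSeq (GRCm38.p6), as windows of 250 bases before and 50 bases after each annotated start. There were 6 windows for 5 members, with 2 starts for Sesn1, and Foxo4 had none. They are shown because Sesn1, Sesn2 and Sesn3 are lower together in rejuvenated old MSCs, and because their known regulators bind recognisable letters. The forkhead motif GTAAACA, searched on both strands, was found in 1 of the 6 windows, that of the first Sesn1 start, where it lies on the opposite strand with its first letter 23 bases after the start. The same motif was in 3.65% of the 32851 windows of this length. The p53 half-site was found in 1 of the 6 windows, that of the second Sesn1 start, 173 bases before the start, and was in 8.36% of all windows. The ATF4 element TGATGCAA was found in 0 of the 6 windows and in 0.895% of all windows. An NRF2 motif was not searched, and sites outside the windows would not be seen, so an absent match does not show a lack of regulation. The stretches below are written along the strand of the gene, with the match in capitals.
Sesn1, first start, forkhead motif, chr10:41810586-41810612, plus strand: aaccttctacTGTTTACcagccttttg
Sesn1, second start, p53 half-site, chr10:41887256-41887285, plus strand: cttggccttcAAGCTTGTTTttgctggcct

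A further feature was noticed on reading these windows. The letters CCAAT, a common promoter element that binds the factor NF-Y, were searched on both strands and were found in 5 of the 6 windows, always as ATTGG along the gene and upstream of the start. They were absent from the Foxo3 window. Of all windows 37.4% held at least 1 such match and 11.7% held 2 or more, as did 3 of the 6 member windows. Foxo1 had 3 matches, Sesn2 had 2 and Sesn3 had 4, whereas each Sesn1 window had 1. The stretches that hold them are shown for comparison, with the matches in capitals.
Foxo1, chr3:52268167-52268326, plus strand: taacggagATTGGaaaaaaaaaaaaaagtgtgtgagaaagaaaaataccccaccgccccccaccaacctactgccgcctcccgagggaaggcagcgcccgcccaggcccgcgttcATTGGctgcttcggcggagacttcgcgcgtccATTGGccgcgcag
Sesn1, first start, chr10:41810369-41810389, plus strand: acactgtgATTGGcggacact
Sesn1, second start, chr10:41887340-41887360, plus strand: gggccggcATTGGcgggcgcg
Sesn2, chr4:132510537-132510621, minus strand: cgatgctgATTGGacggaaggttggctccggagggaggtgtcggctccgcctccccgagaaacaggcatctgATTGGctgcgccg
Sesn3, chr9:14276077-14276234, plus strand: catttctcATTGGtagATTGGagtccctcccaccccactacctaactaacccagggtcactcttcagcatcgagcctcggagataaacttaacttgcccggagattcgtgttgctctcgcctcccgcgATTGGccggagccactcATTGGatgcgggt
A match is a run of letters and not a measured binding site.

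Co-culture asks how old MSCs change when they share medium with young MSCs. In rejuvenated old MSCs, Foxo3 and the 3 sestrins were lower than in old MSCs, with changes of -11.9% to -23.7%, Foxo4 was 17.0% higher, and Foxo1 did not pass the test. With limma and Benjamini-Hochberg adjustment over all 14353 genes, 5 of the 6 members were thus called, 1 higher and 4 lower, where 41.6% of all tested genes were called, 21.0% higher and 20.6% lower. The 6 libraries of each group did not overlap for these 5 members, as for 22.0% of all tested genes. The median log2 fold change was -0.23 over the members and 0.01 over all tested genes, and the median size was 0.25 against 0.15.

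**Figure D1:**
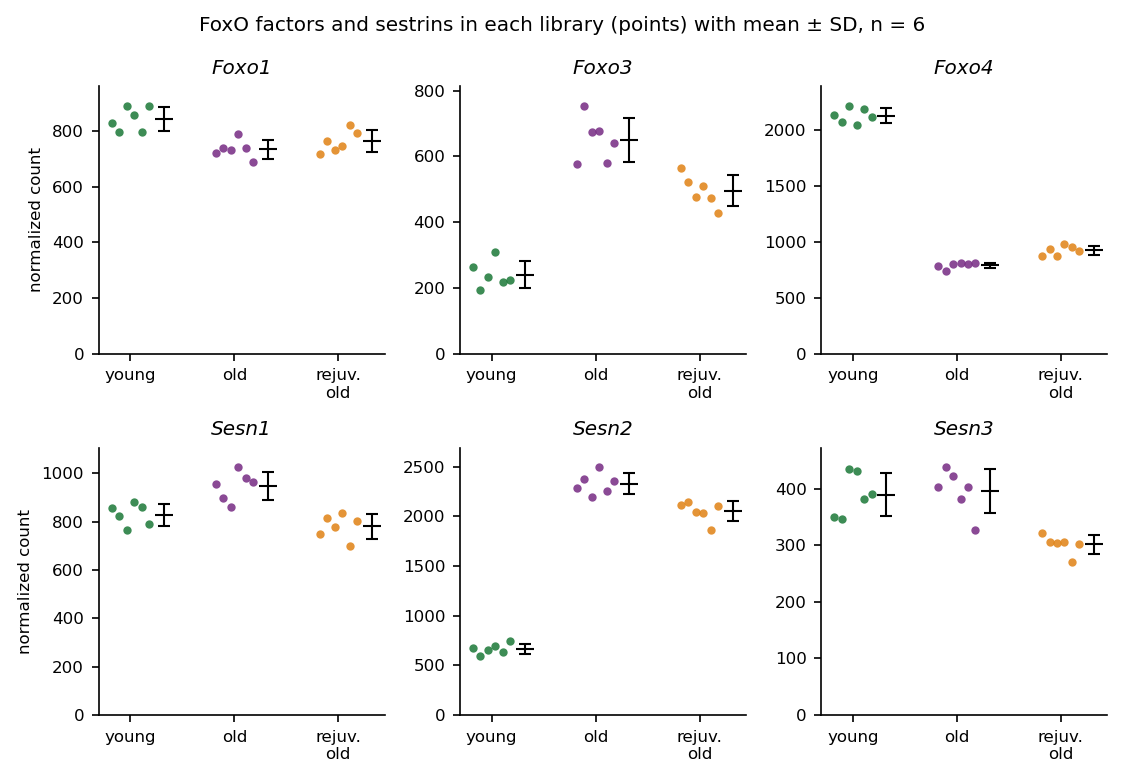
Normalized counts (vertical axis, from 0) of each FoxO factor and sestrin in the 6 young, 6 old and 6 rejuvenated old libraries, 1 point per library, with the mean ± SD beside the points. Foxo4 and Sesn2 separate young from old libraries most widely and in opposite directions, and for Sesn3 the rejuvenated old libraries, at 271 to 321, lie below all others.

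Foxo1 (gene number 56458), on chromosome 3 from 52268337 to 52350109 on the plus strand of GRCm38 (mm10), encodes the FoxO factor best known for control of glucose metabolism. Its normalized count ran from 796 to 892 (median 843) in young, from 688 to 792 (median 736) in old MSCs and from 718 to 823 (median 756) in rejuvenated ones. All young libraries were above all old ones, by a narrow gap, and the rejuvenated old libraries overlapped with both. The means were 844 ± 42.7, 735 ± 33.8 and 763 ± 39.6 (SD, n = 6 each) in this order. The log2 fold change of rejuvenated old against old MSCs was 0.05 (95% interval -0.04 to 0.15, adjusted p = 0.357). Foxo1 shares 674 exon bases with Gm20402, an antisense gene, and the strand setting of the counting is not stated, so reads of the pair may not have been separated.

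Foxo3 (gene number 56484) is encoded on chromosome 10 from 42181845 to 42276695 on the minus strand, and its product is the FoxO factor most often tied to longevity and to stem cell quiescence. It ran from 193 to 310 (median 229) normalized counts in young, from 577 to 754 (median 658) in old MSCs and from 428 to 566 (median 492) in rejuvenated ones. The groups did not overlap, and the rejuvenated old libraries lay between the other two. The mean fell from 651 ± 67.5 in old to 496 ± 47.7 in rejuvenated old MSCs, against 240.1 ± 41.1 (SD, n = 6 each) in young MSCs. The log2 fold change after co-culture was -0.39 (standard error 0.09, adjusted p = 0.00185), of a size at percentile 84.2 of all tested genes.

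Foxo4 (gene number 54601), on chromosome X from 101254261 to 101260873 on the plus strand, encodes a FoxO factor known to bind p53 in senescent cells. It had 2046 to 2218 normalized counts (median 2127) in young, 741 to 807 (median 799.6) in old MSCs and 875 to 981 (median 928) in rejuvenated ones. The young libraries stood far above all others, and each rejuvenated old library was above each old one. The means were 2129 ± 65.1, 789 ± 25.3 and 924 ± 42.5 (SD, n = 6 each). Foxo4 was the member that was higher after co-culture, with a log2 fold change of 0.23 (standard error 0.04, adjusted p = 2.49e-05).

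Foxo6 (gene number 329934), the remaining FoxO gene and not a member here, was low. It had 19.9 to 46.8 normalized counts in young MSCs, and 0 to 3.23 in old and 0 to 3.09 in rejuvenated old MSCs, which is at most 3 reads per library. No fold is given for the co-culture, since both groups were at this floor.

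Sesn1 (gene number 140742), on chromosome 10 from 41810574 to 41908436 on the plus strand, encodes a sestrin first found as a p53 target. It ran from 763 to 881 (median 839) in young, from 859.6 to 1024 (median 959.5) in old and from 699 to 837 (median 791) normalized counts in rejuvenated old MSCs. The rejuvenated old libraries were all below the old ones and overlapped with the young ones. The means were 829 ± 44.9, 947 ± 59.4 and 780.0 ± 50.5 (SD, n = 6 each), and the log2 fold change after co-culture was -0.28 (standard error 0.05, adjusted p = 0.000122).

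Sesn2 (gene number 230784) lies on chromosome 4 from 132492804 to 132510456 on the minus strand and encodes the sestrin known as a leucine sensor of mTORC1. It had 597 to 748 normalized counts (median 660.3) in young, 2190 to 2492 (median 2320.4) in old MSCs and 1862 to 2142 (median 2073) in rejuvenated ones. The old and rejuvenated old libraries sat close together without overlap, and the young ones were far below both. The means were 665 ± 52.5, 2326 ± 106 and 2049 ± 101 (SD, n = 6 each), and the log2 fold change after co-culture, the smallest of the 5 called, was -0.18 (standard error 0.05, adjusted p = 0.00367).

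Sesn3 (gene number 75747), on chromosome 9 from 14276301 to 14326134 on the plus strand, encodes a sestrin that FoxO factors are known to induce. Its normalized count ran from 347 to 435 (median 386) in young, from 327 to 438 (median 403) in old MSCs and from 271 to 321 (median 305) in rejuvenated ones. Young and old libraries overlapped almost entirely, and all rejuvenated old libraries were below both. The means were 389 ± 38.2, 396 ± 38.8 and 302 ± 16.6 (SD, n = 6 each), and the log2 fold change after co-culture was -0.39 (standard error 0.07, adjusted p = 0.000167), of a size at percentile 84.0 of all tested genes.

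Rejuvenated old replicate 5 had the lowest value of its group for each of the 3 sestrins. Without it the log2 fold changes were -0.25 for Sesn1 (adjusted p = 0.000341), -0.16 for Sesn2 (adjusted p = 0.0111) and -0.36 for Sesn3 (adjusted p = 0.000560), so that each call held without this library. Rejuvenated old replicate 1, which stood apart in Cd34 and Thy1, was left out in the same way. The log2 fold change was then 0.24 for Foxo4 (adjusted p = 1.64e-05), -0.43 for Foxo3 (adjusted p = 0.00102), -0.27 for Sesn1, -0.19 for Sesn2 and -0.41 for Sesn3, and the same 5 members were called.

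**Figure D2:**
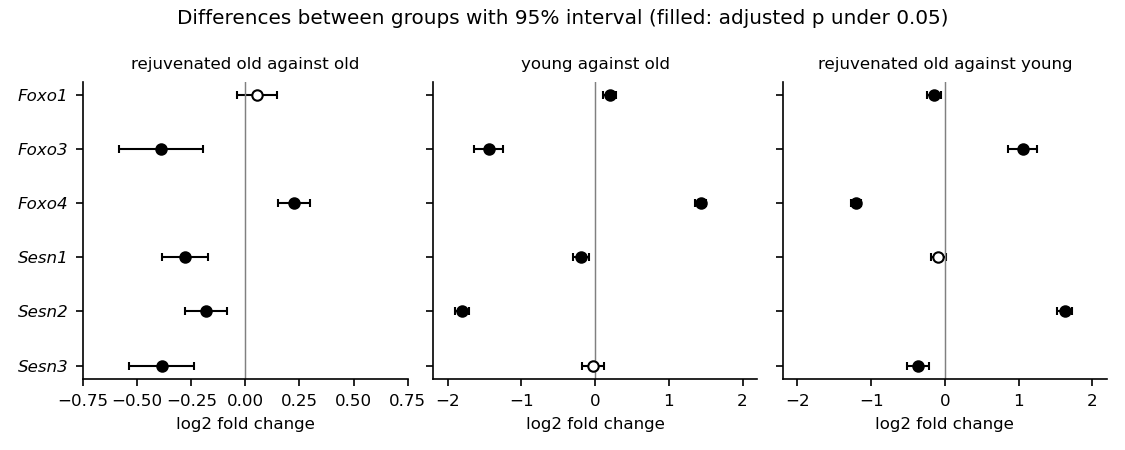
Log2 fold change (horizontal axis, on the log2(value + 1) scale) of each member in the 3 comparisons, with its 95% interval, filled where the adjusted p is under 0.05. The horizontal range of the left panel is narrower than that of the others. Foxo1 is open between rejuvenated old and old, Sesn3 between young and old, and Sesn1 between rejuvenated old and young MSCs.

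Young and old MSCs differed most in Sesn2 and least in Sesn3. In young MSCs Sesn2 was 3.50-fold lower and Foxo3 2.72-fold lower, and Foxo4 was 2.70-fold higher, while Foxo1 and Sesn1 differed by less than 15%. Of the 6 members, 5 were called, 2 higher and 3 lower, and 4 did not overlap between the groups, where 85.7% of all tested genes were called (41.6% higher, 44.1% lower) and 73.9% did not overlap. The members' share is thus near the background. The median size of the log2 fold change was 0.81 over the members and 0.60 over all tested genes.

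The log2 fold change of young against old MSCs was -1.81 for Sesn2 (standard error 0.05, adjusted p = 4.55e-20), 1.43 for Foxo4 (standard error 0.04, adjusted p = 1.70e-20) and -1.44 for Foxo3 (standard error 0.09, adjusted p = 1.23e-12). Each of these 3 was of a size between percentiles 78.2 and 82.9 of all tested genes. Foxo1 was higher in young MSCs by 0.20 (adjusted p = 0.000282) and Sesn1 lower, at -0.19 (adjusted p = 0.00137), with young and old libraries overlapping for Sesn1. Sesn3 was at -0.02 (95% interval -0.17 to 0.13, adjusted p = 0.764).

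Some chromosomes moved as a whole between these groups. The median log2 fold change of young against old MSCs was -0.69, 0.61, -0.46 and -0.75 on chromosomes 1, 7, 12 and 16, none of which holds a member. It was -0.19 over the 695 tested genes of chromosome 10, which holds Foxo3 and Sesn1, 0.20 on chromosome 9 (Sesn3), 0.04 on chromosome 3 (Foxo1), -0.09 on chromosome 4 (Sesn2) and 0.16 on chromosome X (Foxo4). With log2 values centred by chromosome, Sesn1 no longer differed in this comparison (log2 fold change 0.00, adjusted p = 0.934), and Sesn3 was lower in young MSCs by -0.20 (adjusted p = 0.0155). Between rejuvenated old and old MSCs the medians of the members' chromosomes were all between -0.01 and 0.00.

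After 7 days beside young MSCs, old MSCs remained apart from young MSCs in the same members that set young and old apart most. Rejuvenated old MSCs had 3.08-fold more Sesn2 and 2.08-fold more Foxo3 than young MSCs, and 2.30-fold less Foxo4. Of the members, 5 were called, 2 higher and 3 lower, and 4 did not overlap, where 85.6% of all tested genes were called (44.1% higher, 41.5% lower) and 70.5% did not overlap. The log2 fold changes were 1.62 for Sesn2 (standard error 0.05, adjusted p = 3.60e-19), 1.05 for Foxo3 (standard error 0.09, adjusted p = 3.91e-10) and -1.20 for Foxo4 (standard error 0.04, adjusted p = 4.67e-19).

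The other members differed less from young MSCs than Sesn2, Foxo3 and Foxo4 did. Foxo1 was lower by -0.14 (adjusted p = 0.00478) with overlapping libraries, and Sesn3 was below all young libraries, at -0.36 (adjusted p = 7.42e-05). Sesn1 was at -0.09 (95% interval -0.19 to 0.02, adjusted p = 0.109), but was called with libraries scaled to the same total (-0.18, adjusted p = 0.00266), to the same 75th percentile (-0.12, adjusted p = 0.0302) or centred by chromosome (-0.29, adjusted p = 9.64e-06). The 3 comparisons share libraries, so their values are given side by side and not as separate evidence. Sesn3 in rejuvenated old MSCs was thus under both other groups, whereas Foxo3, Foxo4 and Sesn2 lay between them.

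Levels of different genes were compared per length, as normalized count per kb of the union of annotated exons (GENCODE M21), which was 8.665 kb for Foxo1, 7.571 for Foxo3, 3.485 for Foxo4, 3.982 for Sesn1, 3.475 for Sesn2 and 15.269 for Sesn3. These lengths include all annotated isoforms, so a member that uses a shorter one in these cells is understated. In young MSCs Foxo4 led with 611 per kb, followed by Sesn1 at 208 and Sesn2 at 191, whose libraries overlapped, then Foxo1 at 97.4, and Foxo3 at 31.7 and Sesn3 at 25.5, which also overlapped. In old MSCs Sesn2 led with 669 per kb, before Sesn1 at 238 and Foxo4 at 227, which overlapped, Foxo3 at 86.0 and Foxo1 at 84.9, which overlapped too, and Sesn3 at 25.9. In rejuvenated old MSCs no neighbours in the order overlapped, and it ran Sesn2 at 589.8, Foxo4 at 265, Sesn1 at 196, Foxo1 at 88.1, Foxo3 at 65.5 and Sesn3 at 19.8.

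The makeup of each family followed from these levels. The 3 FoxO genes summed to 740.1 ± 19.4 per kb in young, 397 ± 10.02 in old and 419 ± 14.2 (SD, n = 6 each) in rejuvenated old MSCs. Foxo4 made up 82.6% ± 1.10 of this sum in young, 57.0% ± 2.02 in old and 63.3% ± 1.11 (SD, n = 6 each) in rejuvenated old MSCs, with no overlap between the groups. The share of Foxo3 was 4.29% ± 0.753, 21.6% ± 1.96 and 15.7% ± 1.58 (SD, n = 6 each) in the same order, again with no overlap. The share of Foxo1 was 13.2% in young and 21.4% and 21.0% in old and rejuvenated old MSCs, the latter pair overlapping.

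The sestrins summed to 425 ± 18.7 per kb in young, 933 ± 40.5 in old and 805 ± 39.4 (SD, n = 6 each) in rejuvenated old MSCs. Old and rejuvenated old sums did not overlap, at 874 to 999 and 729 to 841. Sesn1 and Sesn2 shared the sum about evenly in young MSCs, at 49.0% ± 2.43 and 45.0% ± 2.26 (SD, n = 6 each). Sesn2 alone made up 71.7% ± 0.858 in old and 73.2% ± 0.887 (SD, n = 6 each) in rejuvenated old MSCs, with overlapping libraries. Sesn3 was 6.01%, 2.79% and 2.45% of the sum. Between old and rejuvenated old MSCs the sums of the sestrins thus did not overlap, while the ranges of the share of each of the 3 genes did.

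**Figure D3:**
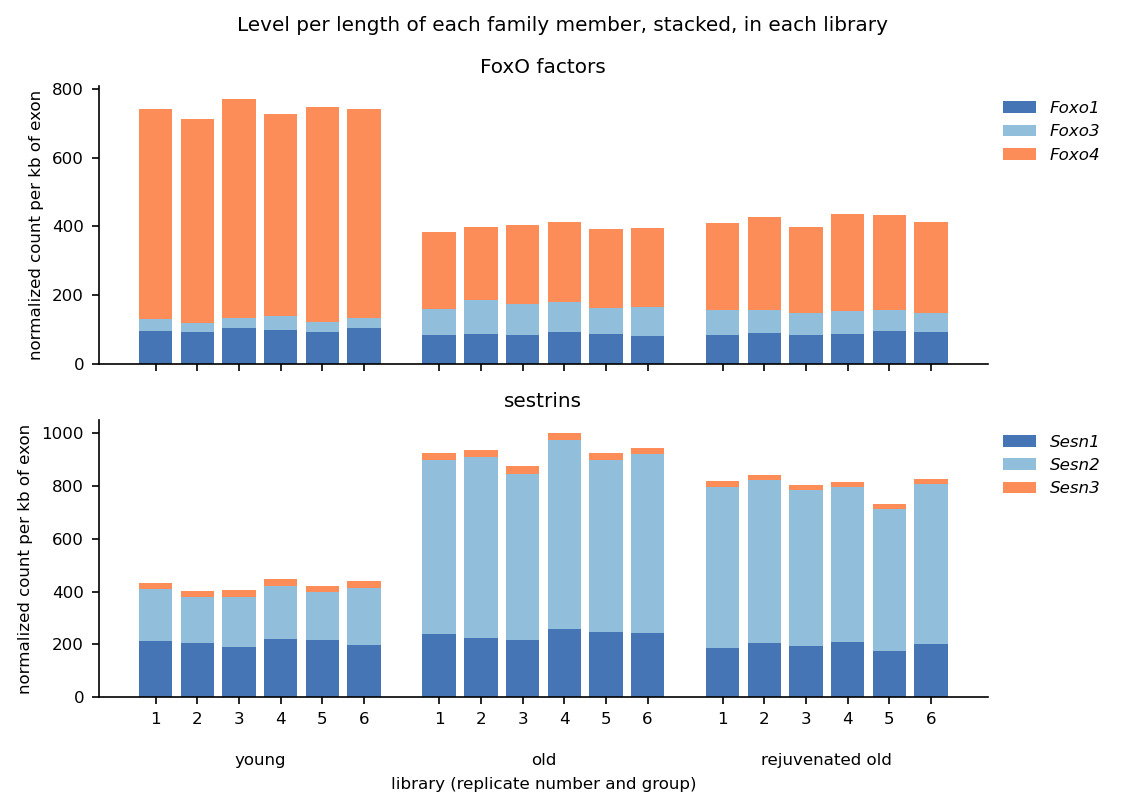
Stacked bars of the level per length (normalized count per kb of exon, vertical axis from 0) of the FoxO factors (top) and sestrins (bottom), 1 bar per library, numbered by replicate within young, old and rejuvenated old MSCs. The FoxO sum is highest in the young libraries, at 713 to 770, most of it Foxo4, and the sestrin sum is highest in the old ones.

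Genes upstream of the FoxO factors moved little after co-culture. Of 19 genes of the PI3K, Akt and Sgk pathway, 1 was higher and 4 were lower after co-culture, which is 26.3% against 41.6% of all tested genes, and the median log2 fold change was -0.02. Sgk1, a kinase that phosphorylates FoxO proteins, went from 1275 ± 107 in old to 881 ± 135 (SD, n = 6 each) in rejuvenated old MSCs, a log2 fold change of -0.54 (adjusted p = 3.44e-06). Pik3cb, a catalytic subunit of PI3K, was lower too, at -0.42 (adjusted p = 0.00858). The kinase genes Akt1 and Akt2 did not pass the test, at -0.03 and -0.07. Akt2 passed with libraries scaled to the same total (adjusted p = 0.0483), centred by chromosome (adjusted p = 0.0148) or without old replicate 6 (adjusted p = 0.0468).

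Between young and old MSCs 9 genes of this pathway were higher and 8 lower in young MSCs, which is 89.5% and near the 85.7% of all tested genes. Irs1, an adaptor of the insulin receptor, had 932 ± 44.9 normalized counts in young and 8231 ± 165 (SD, n = 6 each) in old MSCs (log2 fold change -3.14, adjusted p = 1.43e-26). Pik3cb was higher in young MSCs by 2.05 and Sgk1 by 1.26, while Akt1 was lower, at -1.17. Akt2 did not pass the test (-0.03, adjusted p = 0.381), but was lower in young MSCs with log2 values centred by chromosome (-0.64, adjusted p = 1.47e-12).

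Of 20 enzymes and partners that modify or bind FoxO proteins, 6 were higher and 4 lower after co-culture, which is 50% against 41.6% of all tested genes, with a median log2 fold change of 0.01. Ywhah, a scaffold protein of the family that holds phosphorylated FoxO in the cytoplasm, was higher by 0.24 (adjusted p = 0.00346), and Kat2b, an acetyltransferase, by 0.21 (adjusted p = 0.000143). Sirt1, a deacetylase of FoxO proteins, had 697 ± 61.7 in young, 387 ± 37.0 in old and 345 ± 23.6 (SD, n = 6 each) in rejuvenated old MSCs, where the last difference did not pass the test (-0.16, adjusted p = 0.0633). Sirt1 passed as lower with libraries scaled to the same total (adjusted p = 0.0440), with DESeq2 (adjusted p = 0.0416) or without old replicate 3 (adjusted p = 0.0257). Between young and old MSCs, 9 of the 20 were higher in young and 9 lower, 90% against 85.7% of all tested genes. Mdm2, a ubiquitin ligase of both FoxO proteins and p53, was at -2.95 (adjusted p = 1.15e-27) and Crebbp, an acetyltransferase, at -0.97 (adjusted p = 6.73e-11).

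Known FoxO targets moved in both directions. Of 26 listed, 22 were tested, and Tnfsf10, Pck1, G6pc and Igfbp1 were below the limit on low values. In rejuvenated old against old MSCs 5 were higher and 9 lower, 63.6% of the list against 41.6% of all tested genes, with a median log2 fold change of -0.11. Bnip3, a mitophagy receptor, had 969.7 ± 50.6 normalized counts in old and 2485 ± 361 (SD, n = 6 each) in rejuvenated old MSCs, a log2 fold change of 1.35 (adjusted p = 2.62e-13). Txnip, which limits glucose uptake and binds thioredoxin, went the other way, from 1507 ± 94.4 to 814 ± 342 (SD, n = 6 each), at -0.9999 (adjusted p = 0.000138). In young against old MSCs 11 targets were higher and 7 lower, 81.8% against 85.7% of all tested genes, with a median of 0.12. Pdk4, a kinase that spares glucose in mitochondria, was at -3.87 (adjusted p = 4.17e-26), whereas Trim63, a muscle ubiquitin ligase, had 228 ± 18.4 normalized counts in young, 4.84 ± 1.73 in old and 2.69 ± 2.07 (SD, n = 6 each) in rejuvenated old MSCs.

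Downstream of the sestrins, 17 of 18 listed genes of amino acid sensing were found in the table, which cover the GATOR, KICSTOR, CASTOR and Rag genes, and Kics2 was not analysed here. In rejuvenated old against old MSCs 3 were higher and 4 lower, 41.2% against 41.6% of all tested genes, with a median log2 fold change of 0.00. Mios, a subunit of the GATOR complex that sestrins bind, was higher, with 788 ± 52.5 in old and 1148 ± 73.1 (SD, n = 6 each) in rejuvenated old MSCs (log2 fold change 0.54, adjusted p = 4.36e-09). Rragd, a Rag GTPase that recruits mTORC1 to lysosomes, was lower, at -0.65 (adjusted p = 0.000177). In young against old MSCs all 17 were called, 11 higher and 6 lower, where 85.7% of all tested genes were called, and the median size of the log2 fold change was 0.41 against 0.60 over all tested genes. Rragd was higher there by 2.57, and Rragb, another Rag GTPase, had 159.7 ± 20.5 normalized counts in young against 1.68 ± 1.28 in old and 3.14 ± 4.09 (SD, n = 6 each) in rejuvenated old MSCs.

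Of 13 genes of AMPK, the TSC complex and mTORC1, 2 were higher and 4 lower after co-culture, 46.2% against 41.6% of all tested genes, with a median log2 fold change of -0.06. Ulk1, the kinase that starts autophagy, was lower, at -0.29 (adjusted p = 2.99e-06), and Rheb, the GTPase that activates mTORC1, was higher, at 0.20 (adjusted p = 5.08e-05). Of the 13, 5 were higher and 5 lower in young than in old MSCs, 76.9% against 85.7% of all tested genes. Prkab2, a subunit of AMPK, was at -1.21 (adjusted p = 6.18e-15) and Ulk1 at 0.72 (adjusted p = 3.19e-14).

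Genes of the p53 list were mostly lower in both comparisons, as were Sesn1 and Sesn2. With log2 values centred by chromosome, however, Sesn1 did not differ between young and old MSCs (log2 fold change 0.0044, adjusted p = 0.934). Of the 20 genes of the list, 12 were lower and 3 higher after co-culture, 75% against 41.6% of all tested genes, with a median log2 fold change of -0.15. In young MSCs 16 were lower and 3 higher than in old ones, 95% against 85.7% of all tested genes, with a median of -1.71. Eda2r and Pmaip1, a death receptor and a pro-apoptotic BCL2 protein, were lower after co-culture, at -0.57 (adjusted p = 2.44e-08) and -0.43 (adjusted p = 2.69e-06). Mdm2 was lower as well, at -0.11 (adjusted p = 0.00422), from 12259 ± 366 to 11379 ± 404 (SD, n = 6 each).

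The transcript of p53 itself did not follow this list after co-culture. Trp53 had 1525 ± 128 normalized counts in young, 3596 ± 59.7 in old and 3966 ± 64.9 (SD, n = 6 each) in rejuvenated old MSCs, a log2 fold change of 0.14 after co-culture (adjusted p = 0.00637). Cdkn1a, the cell cycle inhibitor p21, was higher after co-culture too, at 0.10 (adjusted p = 0.0226), but not in the fits without old replicate 3 or 5, without rejuvenated old replicate 4 or 5, or centred by chromosome, where its adjusted p was 0.0504 to 0.210. Gdf15, a stress cytokine, had 114 ± 19.2 in young and 2386 ± 121 (SD, n = 6 each) in old MSCs, a log2 fold change of -4.39 (adjusted p = 6.31e-23). After co-culture Gdf15 was at 2661 ± 242 (SD, n = 6) and did not pass the test (0.15, adjusted p = 0.135). It passed as higher in the fit of 2 groups only (adjusted p = 0.0264), with edgeR (adjusted p = 0.0396) and with DESeq2 (adjusted p = 0.0257). Perp, a junction protein, ran against the list, with 142 ± 21.6 in young, 0.690 ± 1.30 in old and 1.15 ± 1.19 (SD, n = 6 each) in rejuvenated old MSCs.

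Genes of the ATF4 list were mostly higher in both comparisons, in which Sesn2 was lower. Of 19 genes of this amino acid and stress response, 17 were higher and 0 lower after co-culture, which is 89.5% against 41.6% of all tested genes, with a median log2 fold change of 0.41. All 19 were called between young and old MSCs, 18 higher and 1 lower in young, where 85.7% of all tested genes were called, with a median of 1.55. Atf4 had 6795 ± 264 normalized counts in young, 3773 ± 98.5 in old and 4710 ± 199 (SD, n = 6 each) in rejuvenated old MSCs, a log2 fold change of 0.32 after co-culture (adjusted p = 4.67e-08). Trib3, a pseudokinase that inhibits Akt, went from 174 ± 24.7 to 641 ± 220.5 (SD, n = 6 each), at 1.81 (adjusted p = 1.10e-08), and the lipoprotein receptor Vldlr was at 1.79 (adjusted p = 3.40e-10). Ddit3, the stress factor CHOP, was higher by 0.42 (adjusted p = 0.000799). Chac1, which degrades glutathione, was higher in young than in old MSCs by 3.89 (adjusted p = 7.32e-16).

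Of 13 genes of the NRF2 list, 2 were higher and 8 lower after co-culture, 76.9% against 41.6% of all tested genes, with a median log2 fold change of -0.29. In young MSCs 3 were higher and 9 lower than in old ones, 92.3% against 85.7% of all tested genes, with a median of -0.26. Gclc, the rate-limiting enzyme of glutathione synthesis, had 1300.1 ± 82.2 normalized counts in young, 3353 ± 49.5 in old and 1709 ± 93.0 (SD, n = 6 each) in rejuvenated old MSCs, with a log2 fold change of -0.97 after co-culture (adjusted p = 3.25e-14). Slc7a11, the cystine transporter, which also stands on the ATF4 list, was the exception with the widest rise, at 0.76 (adjusted p = 0.00264) after co-culture and 3.63 in young against old MSCs. The sums of macrophage markers, given above, overlapped between old and rejuvenated old MSCs. The differences of members and lists between young and old MSCs stood beside a macrophage sum many times lower in young MSCs, and its part in them was not tested.

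**Figure D4:**
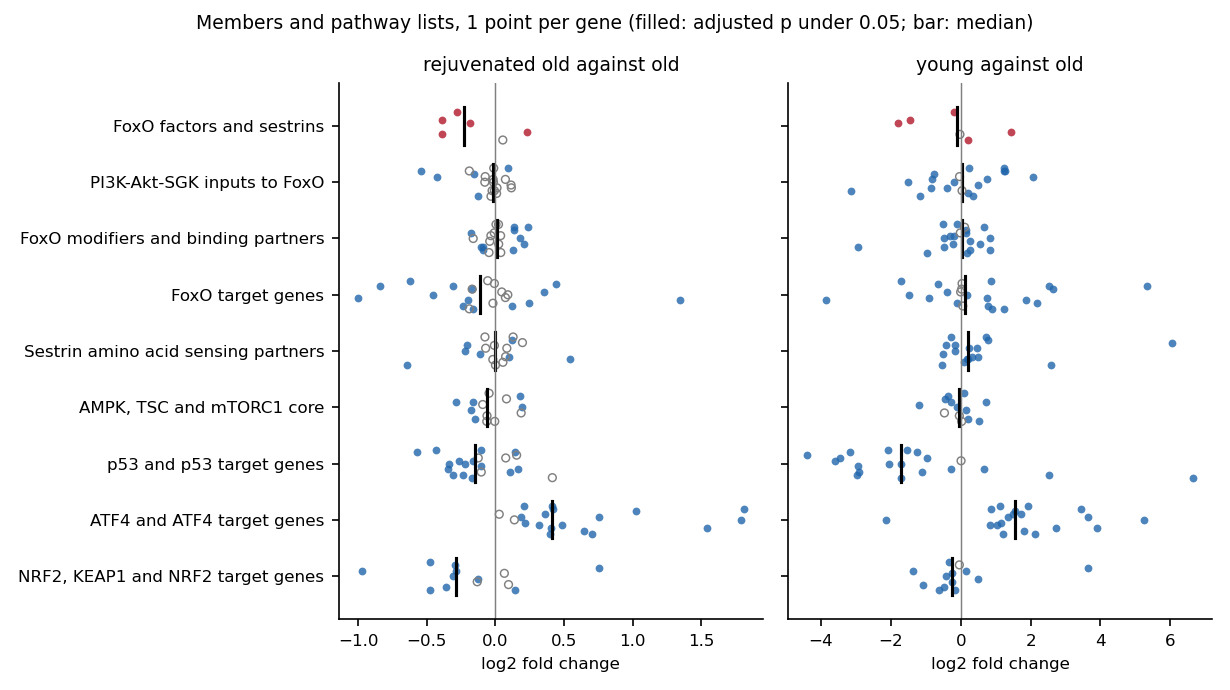
Log2 fold change (horizontal axis) of each tested gene of the members (red, top row) and of 8 pathway lists (blue), in rejuvenated old against old (left) and young against old MSCs (right), filled where the adjusted p is under 0.05 and grey and open otherwise, with a bar at each median. The horizontal ranges differ between the panels. The p53 list lies mostly to the left and the ATF4 list to the right of 0 in both panels, with medians of -0.15 and 0.41 on the left and -1.71 and 1.55 on the right.

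Genes with the pattern most like a member were found by the mean absolute difference of log2 values over the 18 libraries, after each gene's own mean was subtracted. For Sesn2 the nearest was Aen, a nuclease that p53 induces, at a distance of 0.05 log2 units, with 539 normalized counts in young, 1764 in old MSCs and 1571 in rejuvenated ones. Loxl3 and Col5a1, a matrix crosslinking enzyme and a collagen, came next, each within 0.07. For Sesn3 the nearest was Nfe2l2, which encodes NRF2, at 0.07, with 3479, 3576 and 2926 normalized counts in the same order, followed by Zmpste24, the protease that matures lamin A, and Pard3, a polarity protein. Foxo4 was matched by Gzf1, Gramd4 and Acp6, at 0.05 to 0.06, and Foxo3 less closely by Tmem104, Cep170b and Cav2, each at 0.12. Foxo1 was matched by Cog8, Vps72 and Cd81, each at 0.05, and Sesn1 by Miga2, Pbxip1 and Tom1l2, each at 0.06. Among the members themselves, Sesn1 and Sesn3 were nearest to each other, at 0.15, and Foxo4 and Sesn2 farthest apart, at 1.35. The distance was 0.23 between Foxo3 and Sesn2, 1.14 between Foxo3 and Foxo4 and 0.74 between Sesn1 and Sesn2, so that Foxo3 was nearer to Sesn2 than to Foxo4, and Sesn2 nearer to Foxo3 than to Sesn1. With Pearson's r over the same 18 libraries, which ignores the size of the change, 5 of the 18 named neighbours stayed among the nearest 3 of their member.

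Sesn1 and Foxo3 are neighbours on chromosome 10, with a gap of 273 kb that holds the tested genes Armc2 and Gm9855. To see whether their lower level after co-culture was shared by the region, the 19 other tested genes within 1 Mb of the pair were described. In rejuvenated old against old MSCs 1 was higher and 6 were lower, where 41.6% of all tested genes were called, 21.0% higher and 20.6% lower. The median log2 fold change was -0.08, against -0.28 for Sesn1 and -0.39 for Foxo3. The range was -1.04 to 0.30, the lower end being Ppil6, whose mean of 10.4 normalized counts was just over the limit on low values. Ostm1, 414 kb from the Foxo3 start, was lower with both members, at -0.36 (adjusted p = 7.07e-07), while Cep57l1, beside Sesn1, was higher, at 0.26 (adjusted p = 0.000432). These 2 genes were chosen after their values were seen. In young against old MSCs 6 of the 19 were higher and 9 lower, where 85.7% of all tested genes were called, 41.6% higher and 44.1% lower. The median was -0.31. The range was -2.58 to 6.63, the lower end again being Ppil6 and the upper end Gm9855, which was near the floor in old MSCs.

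**Figure D5:**
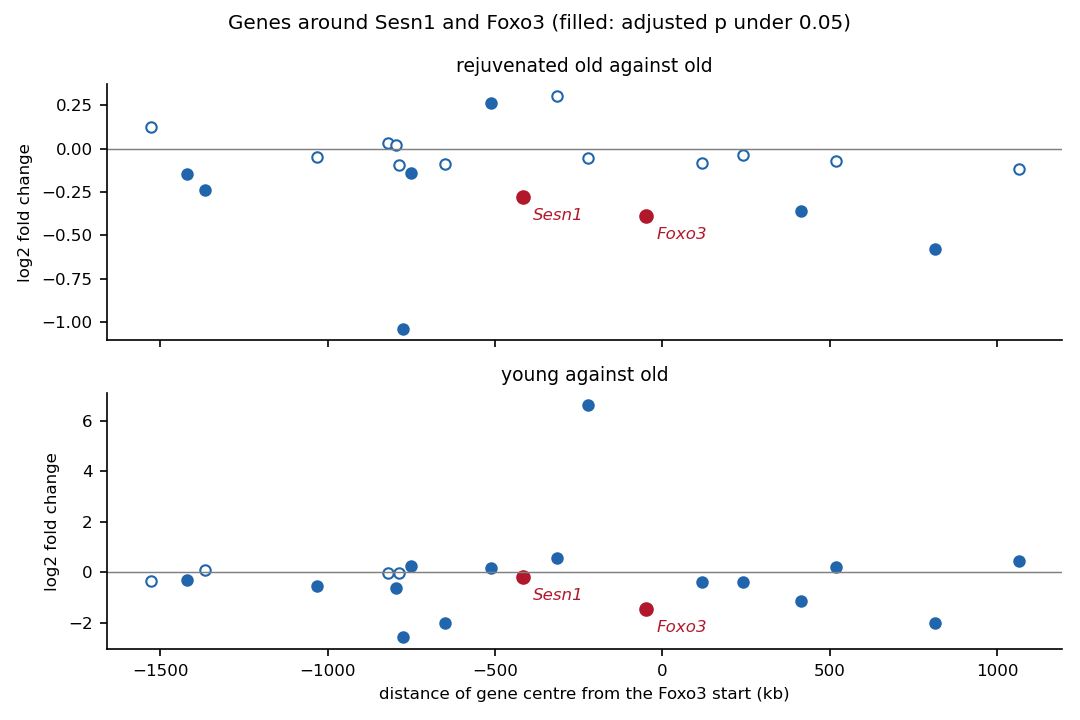
Log2 fold change (vertical axis) of each tested gene around Sesn1 and Foxo3 against the distance of its centre from the Foxo3 start in kb (horizontal axis), in rejuvenated old against old (top) and young against old MSCs (bottom), filled where the adjusted p is under 0.05. Both members (red) lie below 0 in both panels, and the genes beside them (blue) lie on both sides of it.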

How the data were processed

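RNA of 18 cultures was sequenced from stranded mRNA libraries. Per the labels and the paper, the authors aligned reads to mm10 with HISAT2, used StringTie and featureCounts for counting and DESeq2 for normalization, on Galaxy. Versions, gene annotation and strand setting are not given in the sources used here. The deposited values are a signal, the reads of a gene divided by a size factor of its library. Whole reads were recovered for 100% of the values (tolerance 0.01 read), from 22936251 to 29559194 per library. Positions and promoters came from GRCm38 (GENCODE M21, RefSeq GRCm38.p6).

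Log2(value + 1) was tested with limma 3.58.1 in R 4.3.3, prior variance following the mean, all 18 libraries in 1 fit, over the 14353 genes whose mean was 10 or more, with Benjamini-Hochberg adjustment and calls under 0.05. Fold changes are on the log2(value + 1) scale, which understates low genes. edgeR 4.0.16 (quasi-likelihood) and DESeq2 1.42.0 on the recovered reads were alternatives, as were the pseudocount, the limit on low values, scaling, fits of 2 groups, a single prior variance, a replicate block, a stricter threshold and leaving out each library. The test was tried on simulated counts. Tables and plots used Python 3.11.15, numpy 2.4.6, pandas 2.3.3 and matplotlib 3.10.9. No 2 libraries were identical.

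The members and lists were chosen with earlier results of these data known. Named genes are all members, in each list the 2 called genes with the largest log2 fold change in each of 2 comparisons (rejuvenated old against old, young against old), 12 fixed regulators (2 are not reported here), and 3 genes most like each member. CCAAT, the sex-specific genes and Cd34, Thy1 and Pf4 by library were looked at afterwards.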

Additional observations from a re-analysis of the deposited data

Results flagged for a closer look

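Rejuvenated old replicate 1 lay far from the other 5 libraries of its group in 2 markers that were high in young MSCs. Cd34 was at 402 normalized counts there against 24.2 to 41.9, and Thy1 at 21.6 against 0 to 0.951. Its gap to the nearest library was over 0.95 of the group's range for both, above Dixon's 95% value for 6 samples. Of 8 such sets of marker values tested 2 passed, both through this library. The markers were chosen for this test after their values were seen, so no chance rate can be set beside this count. For Thy1 the other 5 values were at the floor, where the test means little.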

How the results depend on the processing

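Over 31 alternatives the count of members called stayed at 5 in rejuvenated old against old and in young against old MSCs, and was 5 to 6 in rejuvenated old against young MSCs. Of the 18 log2 fold changes of members, all but 3 kept their direction and their side of the threshold throughout. In young against old MSCs Sesn3, at -0.02, was 0.051 with the same total, 0.0106 with the same 75th percentile and -0.20 (adjusted p = 0.0155) centred by chromosome, and ran from -0.077 to 0.0089 with single libraries left out, turning positive without young replicate 1 or 2 or old replicate 2. Sesn1 was 0.0044 (adjusted p = 0.934) in that comparison centred by chromosome. There Sesn1 was no longer called and Sesn3 was, so the count stayed at 5 with a changed set of members. In rejuvenated old against young MSCs Sesn1 passed the threshold with the same total (-0.18), the same 75th percentile (-0.12) and centring by chromosome (-0.29). The cause of these changes was not tested.

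Among the other named genes, the sign in young against old MSCs turned with the same total for Akt2 (0.040), Nfe2l2 (0.035) and Zmpste24 (0.039), and centred by chromosome for Cd81 (-0.35), Nfe2l2 (0.039) and Zmpste24 (0.081). In rejuvenated old against old MSCs, leaving out single libraries moved Crebbp from -0.103 to 0.0041. Over all alternatives a call was lost 30 times, in 5 comparisons of a named gene, and gained 14 times, also in 5, with the same direction. With an adjusted p under 0.01, the calls after co-culture went from 5 to 3 in the PI3K list, from 10 to 5 in the list of FoxO modifiers and from 7 to 4 in that of amino acid sensing.

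Replicate numbers did not pair the libraries. Same-numbered libraries of different groups deviated together with r of -0.15 to 0.07 (0 of 18 pairs over 0.1), and 0 of 18 libraries correlated best with its own number. With the replicate block 5769 genes were called in rejuvenated old against old MSCs, against 5971 without it, and the calls of the members did not change (Sesn2 at -0.18, adjusted p = 0.00297). Dixon's test over 36 sets of 6 values (level and family share of each member in each group) set no library apart. Depth limits Foxo6, Perp, Rragb and Trim63, which had few reads in old MSCs.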
